A study of Homo sapiens with 12 samples.

Results

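CFPAC-1, an established human line grown from a pancreatic ductal adenocarcinoma, holds cells that bind the monoclonal antibody GCTM-5 at their surface and cells that do not, and the RNA of these 2 fractions was compared across the genome. The RNA-seq series has 12 samples, of which 6 are from CFPAC-1: 3 GCTM-5 positive and 3 GCTM-5 negative samples, numbered 1 to 3 in each fraction. The other 6 have the same layout in SW1990, a line of the same cancer, and were used here only to test where CFPAC-1 differed. Cells of both fractions came from the same cultured line, with no gene change or drug named in the labels, were stained with the antibody and a secondary antibody, and were separated in a cell sorter in triplicate sorts. Poly(A) RNA was sequenced. The labels name a peroxidase-coupled secondary antibody and a strand-specific SureSelect kit, whereas the methods of the study name a fluorescent secondary antibody and a TruSeq kit, and the sources used here do not settle which was used. The members are all genes with a mean of at least 0.1 RPKM (reads per kilobase of gene, scaled to the total reads of the library) over the 6 CFPAC-1 samples, which kept 15741 of the 23346 genes in the table.

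Several features limit what the fractions stand for. Only cells at the positive and negative ends of the staining were taken, and a line has no stroma, blood vessels or immune cells. Nothing states that the sorts of a fraction came from separate cultures, so p-values measure the spread between these sorts, which may be technical. In RNA pooled over many cells, fewer cells of a kind and less RNA per cell cannot be told apart.

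The label of a ductal carcinoma line was checked against marker lists. Of 11 ductal epithelial markers, 10 passed the filter, and their summed level was 6932 to 7897 RPKM in the negative samples and 7545 to 9255 RPKM in the positive ones. *KRT19*, a keratin of duct cells, stood at 2654, 3048 and 2862 RPKM in negative and 2331, 2714 and 2744 RPKM in positive samples. *CFTR*, the duct chloride channel was close to absent: 1 read was recovered from the 3 negative libraries and 5 from the 3 positive ones. Of the markers of other cells, 2 of 10 for fibroblasts, 2 of 10 for leukocytes, 2 of 7 for endothelium, 2 of 10 for acinar and endocrine cells and 1 of 5 for erythroid cells passed the filter. Summed levels were 1.42 to 1.85 RPKM in negative and 1.62 to 2.40 RPKM in positive samples for the fibroblast list, and 0.989 to 1.58 RPKM against 0.797 to 1.17 RPKM for the endothelial one. They were 0.252 to 0.412 RPKM against 0.258 to 0.401 RPKM for acinar and endocrine genes and 0.0481 to 0.282 RPKM against 0.0470 to 0.0749 RPKM for erythroid genes. The leukocyte list summed to 119 to 137 RPKM in negative and 112 to 167 RPKM in positive samples, nearly all of it the lysosomal *CD68*, which carcinoma cells also make, while 2 of its 10 members were at 0 in all 6 samples.

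GCTM-5 binds a glycoprotein complex that carries carbohydrate of the Lewis family, which ductal cells build by adding fucose to galactose-containing chains with fucosyltransferases. On a glycan array, the study found no GCTM-5 signal past its cut-off for any glycan, sialyl Lewis A among them. Several related structures gave a weak signal below it. Duct cells of the pancreas are a simple epithelium that secretes fluid and bicarbonate, and in carcinoma they can take on features of squamous, mesenchymal or ciliated cells. A cell that commits to division first switches on the E2F transcription factors, which drive the genes for DNA synthesis in S phase, and later the genes of mitosis in G2 and M phase.

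Library totals recovered from the values were 19468573, 21866270 and 19935061 reads in the negative samples and 26159330, 18773123 and 9969697 reads in the positive ones. Positive replicate 3 thus had the lowest depth, and it stood apart: the first principal component (54.5% of the variance) separated the fractions, and the second (19.9%) placed positive replicate 3 at 54.4 and the other positive samples at -25.0 and -28.4. In that sample *MIR3648*, which lies in the ribosomal RNA precursor, was listed at 34.5 RPKM, against 0.508 to 2.07 RPKM in the other 5. List counts also depended on the other samples: of 98 list counts (genes that rose or fell, per list), those that moved by over 1.5 times and over 1 gene numbered 24, 39 and 46 without negative replicates 1, 2 and 3, and 20, 7 and 10 without positive replicates 1, 2 and 3. A range of a list count below is over the 6 fits that each leave out 1 of these samples. Calls over all genes moved as well, from 3095 higher and 2004 lower with all samples. Without negative replicates 1, 2 and 3 they were 2099, 1778 and 1650 higher and 1095, 965 and 881 lower. Without positive replicates 1, 2 and 3 they were 2126, 2896 and 3768 higher and 1397, 1852 and 2606 lower. How far list counts moved beyond this was not tested.

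The 2 fractions differed over much of the transcriptome. On log2(RPKM + 0.1), limma called 3095 genes (19.7% of those fitted) higher in positive cells and 2004 (12.7%) lower at a Benjamini-Hochberg adjusted p under 0.05, together 32.4%, and "rose" and "fell" below mean that a gene passed this test. Changes over 2-fold were called for 894 genes that rose (5.68%) and 681 that fell (4.33%). The values of the 3 positive samples lay wholly outside the range of the 3 negative ones for 49.6% of genes. Without positive replicate 3 the shares were 23.9% higher and 16.6% lower. Fold changes are differences of mean log2 values, which understate the change of low genes, and their median over all genes was 0.06. When each sample was centred on its own median, that median moved to -0.05 and the split of calls from 3095 higher and 2004 lower to 2411 higher and 2616 lower. Genes and lists with a small change are therefore described against the median of all genes. A list in which about 19.7% of members rose or 12.7% fell changed no more often than all genes.

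**Figure D1:**
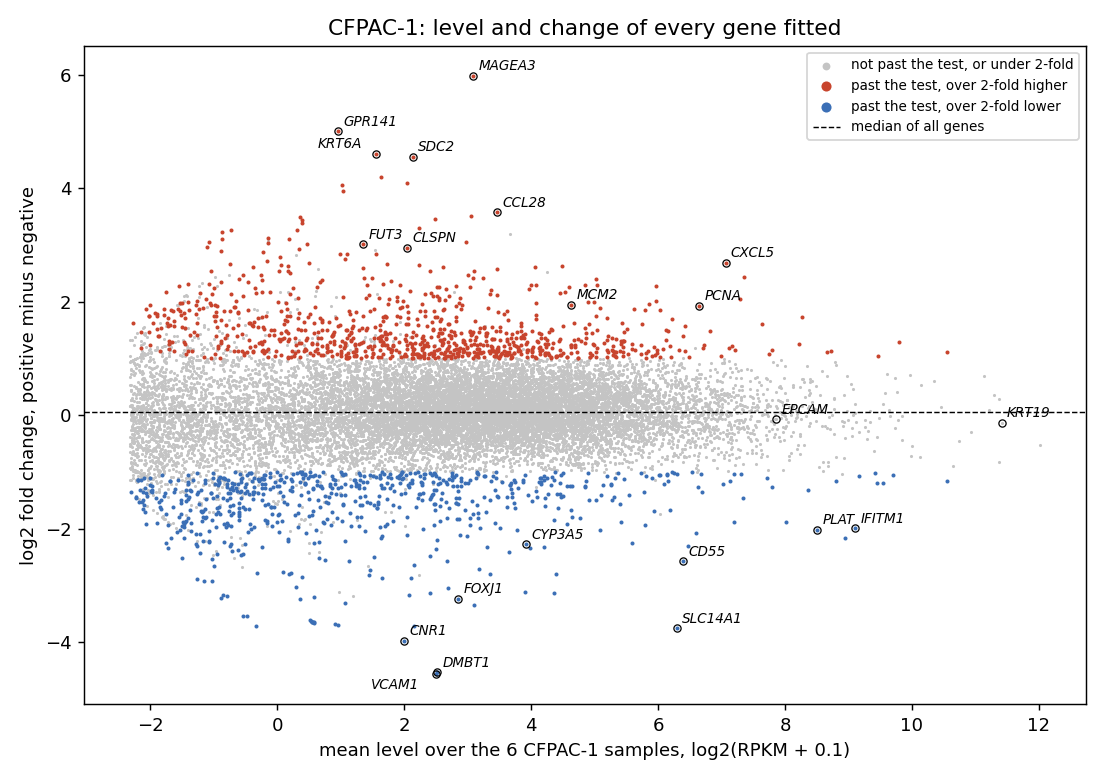
Each gene fitted in CFPAC-1 is a point, with the mean level over the 6 samples as log2(RPKM + 0.1) on the x axis and the log2 fold change, positive over negative, on the y axis. Coloured points are the 894 genes that rose over 2-fold and the 681 that fell over 2-fold, *MAGEA3* lies at the top of the plot at 5.98 and *VCAM1* at the bottom at -4.57.

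Genes of DNA replication were higher in GCTM-5 positive CFPAC-1 cells without exception on the list used. All 40 S phase genes rose, every one of them over 2-fold, with a median log2 fold change of 1.77 beside 0.06 for all genes, and without positive replicate 3 all 40 still rose. *PCNA*, the sliding clamp that holds DNA polymerase on its template, stood at 41.6, 44.1 and 38.4 RPKM in negative and 180, 139 and 155 RPKM in positive samples. The lowest positive sample was thus more than 3 times the highest negative one, and the log2 fold change was 1.93 (SE 0.12, limma adjusted p = 0.0003). *MCM4*, a subunit of the replicative helicase, went from 8.81, 8.24 and 8.03 RPKM to 41.8, 32.5 and 39.7 RPKM, a log2 fold change of 2.16 (SE 0.12). *CDC6*, which loads that helicase onto origins, went from 10.8, 10.8 and 11.3 RPKM to 58.9, 44.3 and 59.5 RPKM (log2 fold change 2.28, SE 0.13). *MCM2*, a further helicase subunit, rose by 1.94 and *FAM111B*, which encodes a protease and is among the 10 genes with the smallest p in the line, rose from 9.84, 10.1 and 9.11 RPKM to 57.6, 40.7 and 45.5 RPKM. The smallest change on the S phase list was 1.07 and the largest 2.95, that of the checkpoint mediator *CLSPN*.

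**Figure D2:**
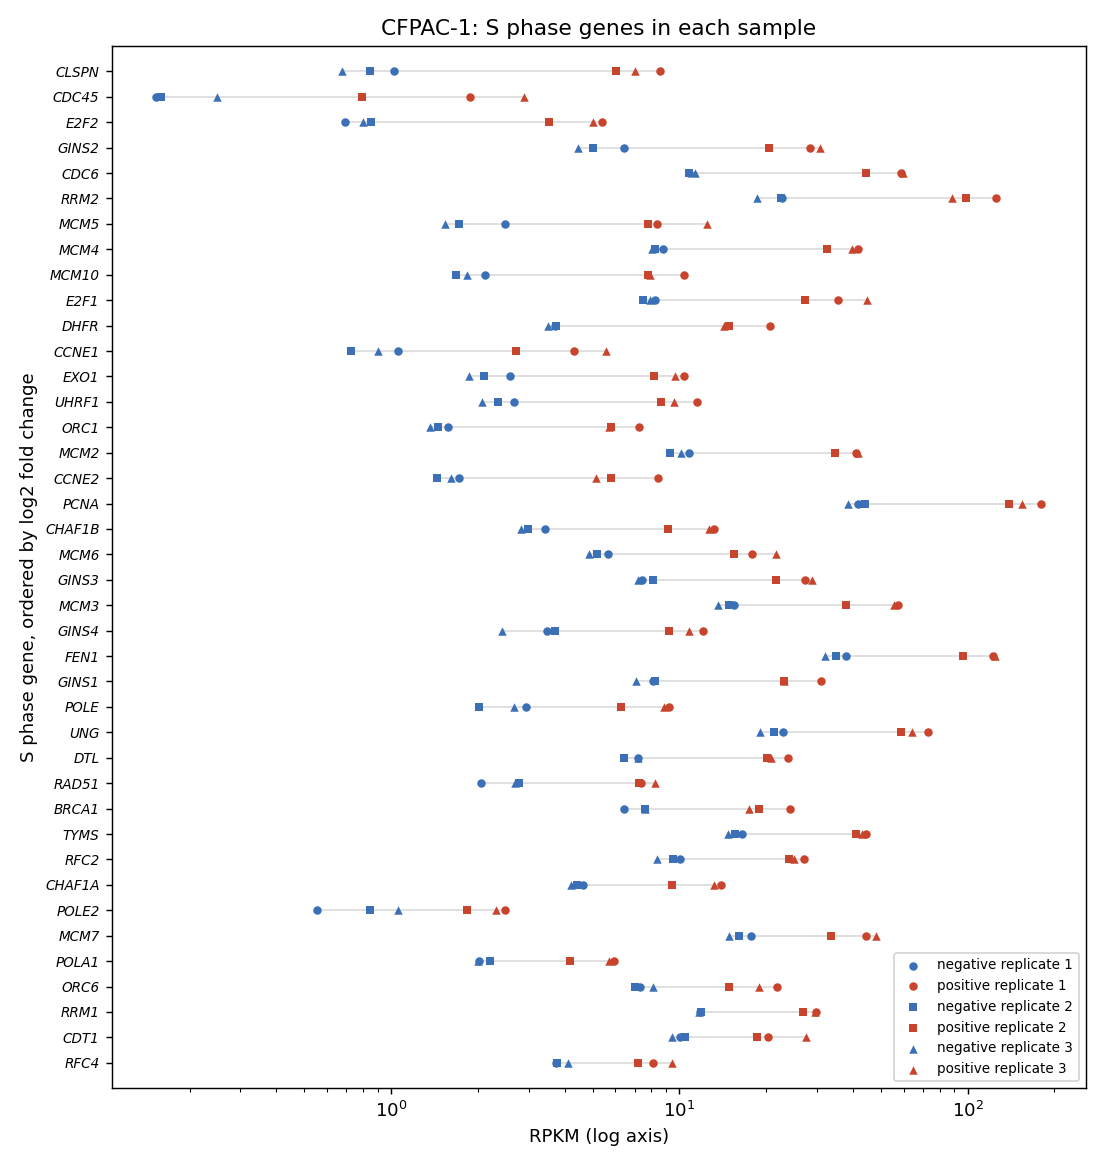
RPKM of the 40 S phase genes in each CFPAC-1 sample on a log x axis, ordered by fold change on the y axis, with 1 point for each of the 3 negative and 3 positive samples of a gene. In every gene drawn the positive points lie above the negative ones, as for *PCNA* at 139 to 180 RPKM against 38.4 to 44.1 RPKM.

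Promoters of some S phase genes are shown, since genes of E2F factors rose as well. Binding of these factors to the promoters was not tested. *E2F1*, an activator of S phase genes, stood at 8.26, 7.5 and 7.91 RPKM in negative and 35.6, 27.3 and 44.7 RPKM in positive samples, and *E2F2*, of the same kind, went from 0.692, 0.854 and 0.802 RPKM to 5.41, 3.54 and 5.02 RPKM. Their log2 fold changes were 2.14 (SE 0.17) and 2.41 (SE 0.21). The stretches below end just before a RefSeq transcript start in GRCh38.p14, with an E2F-type 8-mer in capitals. The 8-mers searched were TTTCCCGC, TTTCGCGC, TTTGCCGC and TTTGGCGC on either strand. *PCNA* (chr20:5126623-5126742, minus strand), *E2F1* itself (chr20:33686386-33686505, minus strand), *UHRF1*, which carries DNA methylation through replication (chr19:4909381-4909500, plus strand), and *GINS2*, a helicase cofactor (chr16:85688955-85689074, minus strand), each hold at least 1, and the 2 in *E2F1* lie within its last 40 bases.
PCNA: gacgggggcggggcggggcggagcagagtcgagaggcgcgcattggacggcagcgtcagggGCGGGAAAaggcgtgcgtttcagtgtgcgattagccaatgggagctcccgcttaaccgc
E2F1: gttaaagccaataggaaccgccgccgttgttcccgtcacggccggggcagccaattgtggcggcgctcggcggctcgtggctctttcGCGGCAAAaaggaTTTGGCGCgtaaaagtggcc
UHRF1: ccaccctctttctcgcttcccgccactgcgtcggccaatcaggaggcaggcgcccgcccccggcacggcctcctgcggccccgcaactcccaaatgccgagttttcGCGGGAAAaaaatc
GINS2: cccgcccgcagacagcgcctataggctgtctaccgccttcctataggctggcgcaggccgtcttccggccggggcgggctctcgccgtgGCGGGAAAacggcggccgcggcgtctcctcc

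A match was searched in the 250 bases before any RefSeq start. It was present for 14 of the 34 S phase genes with a RefSeq start (41.2%), for 3 of 38 G2/M genes (7.89%) and for 623 of the 11619 fitted genes that had a start (5.36%). This motif and these 4 promoters were chosen after the values were seen, and a match is a description of letters, not a site. Only 652 of 894 genes that rose over 2-fold and 466 of 681 that fell had a start. The E2F shares share this limit, since 11619 of 15741 fitted genes had one. The planned grainyhead, interferon-response and ZEB motifs were present for 3.07%, 6.13% and 21% of those that rose. For those that fell the shares were 3%, 9.01% and 24.7%, and for all fitted genes 3.3%, 7.49% and 21.4%. With so many starts missing, no conclusion is drawn from any of these shares. *UHRF1* rose by 2.02 on the log2 scale (2.68, 2.35 and 2.07 RPKM in negative, 11.5, 8.67 and 9.60 RPKM in positive samples) and *GINS2* by 2.30 (6.44, 5.00 and 4.46 RPKM against 28.3, 20.5 and 30.9 RPKM).

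Genes for the supply of DNA precursors rose too. Of 32 genes of nucleotide and folate metabolism, a list added after the values were seen, 29 rose, 15 of them over 2-fold, and none fell (median 0.92). *RRM2*, the regulated subunit of ribonucleotide reductase, went from 22.6, 22.5 and 18.5 RPKM to 126, 98.3 and 88.2 RPKM. Thymidylate synthase (*TYMS*) rose by 1.45, thymidine kinase (*TK1*) by 1.85 and the nucleoside diphosphate kinase *NME1* by 1.57, each with a SE of 0.09 to 0.12. *CTPS*, the CTP synthase, was highest in fold at 2.41 (3.29, 2.34 and 2.18 RPKM against 15.5, 12.1 and 14.9 RPKM).

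Mitotic genes rose less. Of 44 G2/M genes, 39 rose, 12 of them over 2-fold, and none fell (median 0.80), and without positive replicate 3 the number that rose was 43. *MYBL2*, a factor that activates G2/M promoters, led the list from 7.21, 9.12 and 8.19 RPKM to 42.6, 30.0 and 48.2 RPKM, a log2 fold change of 2.26 (SE 0.18). The mitotic activator *CDC20* rose by 1.14, the spindle factor *TPX2* by 0.89 and the checkpoint kinase *BUB1B* by 0.99. Between 28 and 43 of them rose with 1 sample left out. *CDK1*, the mitotic kinase itself, did not pass the test: it stood at 30.1, 42.0 and 36.8 RPKM in negative and 65.1, 56.6 and 35.3 RPKM in positive samples, so that positive replicate 3 lay within the negative range.

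Genes of the G1 phase and of growth arrest differed in direction. Of 24 G1 and p53 target genes, 8 rose and 3 fell (median 0.32), with ranges of 5 to 11 and 1 to 6. The S phase entry genes *CCND3* (cyclin D3, 1.11) and *CDK4* (0.75) rose, and so did *RBL1*, a pocket protein that is itself an E2F target (1.54), and the cell cycle inhibitor *CDKN1A* (0.74). Of 32 growth arrest and FOXO target genes, a list added after the values were seen, 16 fell, 12 of them over 2-fold, and 2 rose (median -0.53), and 11 to 17 fell with 1 sample left out. *KLF9*, a factor of differentiated cells, went from 4.85, 3.20 and 3.07 RPKM to 0.147, 0.348 and 0.385 RPKM (log2 fold change -3.31, SE 0.32). *BCL6*, a repressor, fell by 1.45, *DEPTOR*, an inhibitor of mTOR, fell by 2.56 and *YPEL3*, linked to senescence, by 0.97. Of 23 histone genes only 3 passed the test: *H2AFZ*, whose transcripts are polyadenylated, rose by 1.12, *HIST1H1B* rose by 1.41 at under 1 RPKM, and *HIST1H2BD* fell by 0.72. Most replication histone messages lack a poly(A) tail, and how far this preparation reduced them was not tested. Of 24 listed histone genes, 23 passed the filter.

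Genes that build ribosomes rose by smaller amounts. Of 41 ribosome biogenesis genes, a list added after the values were seen, 26 rose, with a range of 19 to 28, and 1 fell (median 0.61). *NOP56*, a core protein of C/D box small nucleolar RNPs, rose by 1.24 from 25.3, 25.5 and 24 RPKM to 72.0, 45.3 and 63.5 RPKM, and nucleolin (*NCL*) by 0.95. The nucleolar proteins *NOLC1* and *DKC1*, the pseudouridine synthase, rose by 0.89 and 0.77. Of 153 C/D box small nucleolar RNAs that passed the filter, out of 262 in the table, 30 rose, which is 19.6% beside 19.7% of all genes, with a range of 15 to 44, and 2 fell. These are short, sit in introns of their host genes and rest on few reads: *SNORD48* had 3 reads over the negative and 31 over the positive libraries, a ratio per library total of 11.5 (95% counting interval 3.60 to 59.0), and *SNORD88B* 3 and 39 reads, a ratio of 14.5 (4.61 to 73.4). *SNORD17* had 3, 7 and 9 reads in the negative and 100, 47 and 44 in the positive libraries. Such intervals cover counting error only.

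**Figure D3:**
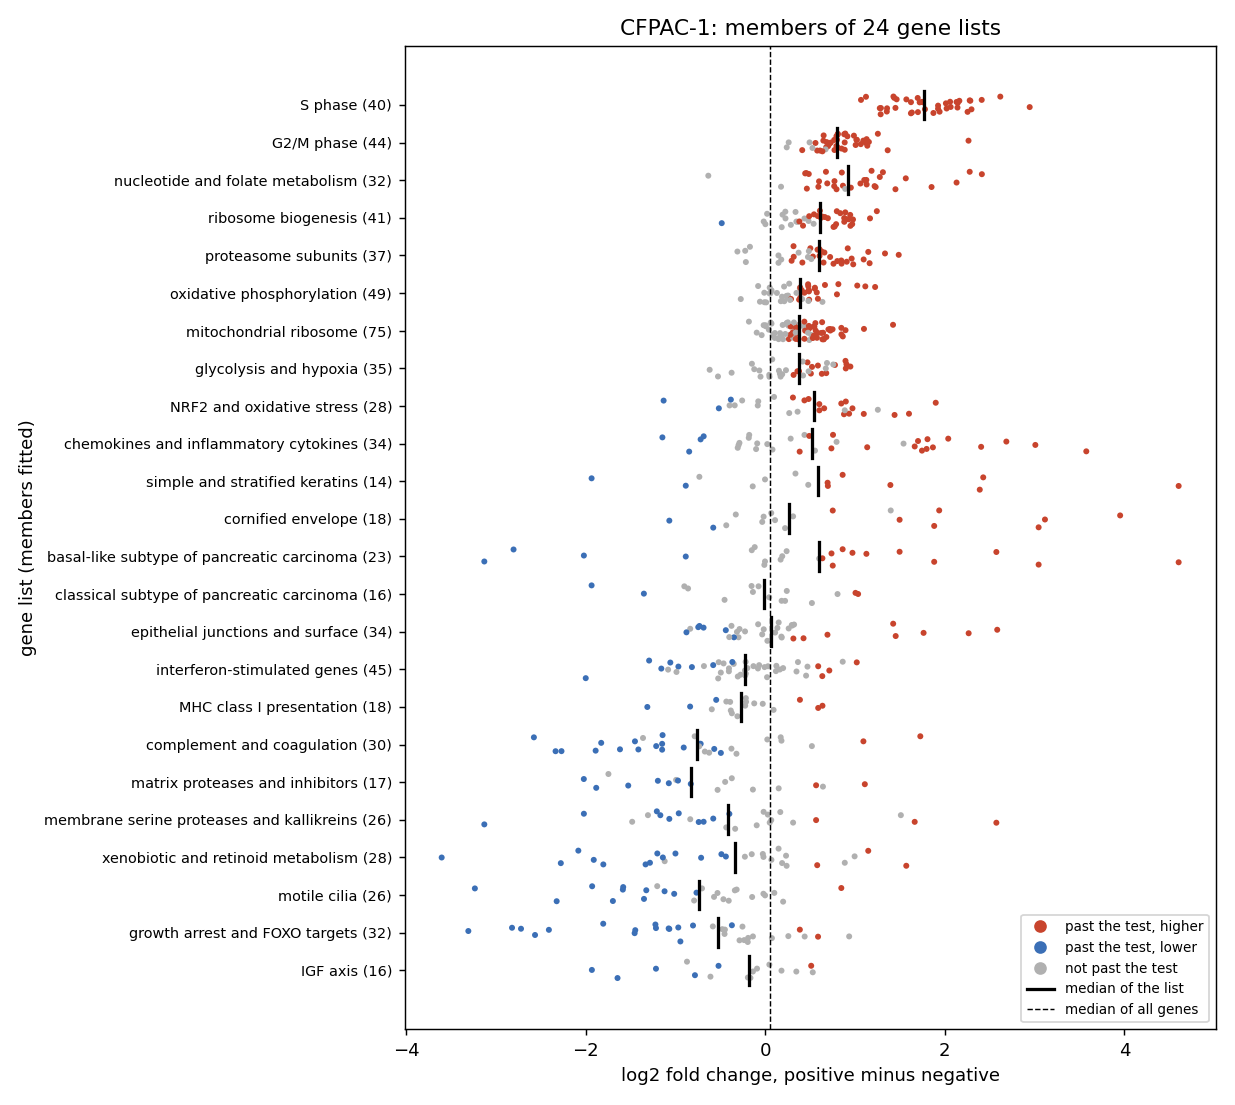
Gene lists in CFPAC-1, with the log2 fold change of each fitted member on the x axis, the list on the y axis, a bar at the median of the list and a dashed line at that of all genes. Of the 24 lists drawn, S phase has the highest median, at 1.77, with all 40 members above 1, while the members of complement and coagulation and of motile cilia lie mostly below 0.

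Of 37 proteasome subunits, 26 rose, 5 over 2-fold, and none fell (median 0.60), with a range of 20 to 31 that rose. *PSMC3*, an ATPase of the regulatory cap, rose by 1.49 (5.69, 4.98 and 6.13 RPKM against 15.9, 13.2 and 18.8 RPKM), and the catalytic subunit *PSMB6* by 1.15. Of 75 proteins of the mitochondrial ribosome 41 rose, with a range of 24 to 44, and none fell (median 0.38). Of 49 genes of oxidative phosphorylation 22 rose, with a range of 10 to 25, and none fell (median 0.39), with *ATP5G1*, a subunit of ATP synthase, at 1.22 and cytochrome c (*CYCS*) at 1.03. Of 35 glycolysis and hypoxia genes 14 rose, with a range of 6 to 19, and none fell, those that rose including *TPI1* (0.90), *ENO1* (0.78), *GPI* (0.91) and *LDHA* (0.59). The summed level of that list was 3168 to 3385 RPKM in negative and 4442 to 4678 RPKM in positive samples, ranges that do not overlap. Of 69 cytosolic ribosomal proteins 15 rose, which is 21.7% beside 19.7% of all genes, with a range of 4 to 18, and 3 fell, with *RPL6* up by 0.98 and *RPS29* down, at -0.79. With each sample centred on its median, 23 proteasome, 29 mitochondrial ribosome, 16 oxidative phosphorylation, 10 glycolysis and 8 ribosomal protein genes were higher. In that fit 2411 of all 15741 genes were higher, instead of 3095.

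Redox and stress genes rose more often than they fell. Of 28 NRF2 and oxidative stress genes, 15 rose and 3 fell (median 0.54), with ranges of 8 to 14 and 1 to 4. These are 53.6% and 10.7%, beside 19.7% and 12.7% of all genes. *GPX2*, a glutathione peroxidase of gut epithelium, went from 29.3, 25.4 and 23.9 RPKM to 61.6, 80.9 and 101 RPKM (log2 fold change 1.60, SE 0.18), peroxiredoxin 1 (*PRDX1*) rose by 0.90, *GCLM*, which helps make glutathione, by 1.44 and malic enzyme *ME1* by 1.90. *SLC7A11*, the cystine importer, chosen after its values were seen, fell instead, from 54.0, 58.0 and 68.5 RPKM to 21.3, 26.1 and 36.5 RPKM. Of 33 unfolded protein and integrated stress response genes 13 rose (39.4%) and 4 fell (12.1%), with ranges of 7 to 14 and 2 to 7. The serine synthesis enzyme *PSAT1* rose by 2.28, *SHMT2*, a mitochondrial folate enzyme, by 0.77, the chaperone partner *SDF2L1* by 1.45 and *TRIB3* by 0.91. Of 24 cholesterol synthesis genes 4 rose (16.7%, beside 19.7% of all genes) and 2 fell (8.33%, beside 12.7%), with *MVK* at 0.92. Without positive replicate 3 the number that rose was 10. The range was 3 to 10 that rose and 0 to 3 that fell. Of 21 fatty acid genes 7 rose and 3 fell, with ranges of 2 to 9 and 0 to 3. *SCD*, the stearoyl-CoA desaturase, was among the most abundant transcripts and fell from 1813, 2120 and 2160 RPKM to 826, 1396 and 643 RPKM, while *DGAT2*, which makes storage fat, rose by 1.16.

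The enzymes that finish the Lewis epitope were led by *FUT3*, the Lewis fucosyltransferase. The gene lies at chr19:5842899-5851482 on the minus strand of GRCh37. *FUT3* stood at 0.436, 0.547 and 0.387 RPKM in negative and 4.93, 5.27 and 3.18 RPKM in positive samples, with no overlap, a log2 fold change of 3.01 (SE 0.25, limma adjusted p = 0.00053). Of 11 fucosyltransferases fitted, 3 rose and 1 fell. *FUT4* rose by 0.93 and *POFUT1*, which fucosylates Notch, by 0.48, while *POFUT2* fell by 0.84. *FUT6*, the close paralog of *FUT3*, was low, at 0.164, 0.175 and 0.128 RPKM against 0.341, 0.340 and 0.384 RPKM, and its log2 fold change of 0.83 (SE 0.30) missed the threshold (adjusted p = 0.064) although the samples did not overlap. Of 23 galactosyl- and sialyltransferases that build or cap the precursor chains 2 rose and 4 fell, with ranges of 1 to 2 and 1 to 7. *B3GALT5*, which makes the type 1 chain of Lewis a, fell by 0.76, from 40.5, 40.9 and 47.7 RPKM to 23.1, 26.8 and 26.3 RPKM. *B3GNT4* rose by 0.95, and the sialyltransferases *ST3GAL5* and *ST3GAL3* fell by 0.65 and 0.57.

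The study found the proteins FCGBP, HPX and LGALS3BP in the antigen complex of CFPAC-1, and reported C3 for the complex of an SW1990 subclone. Only RNA was measured here, and the RNA of these genes was not higher in positive CFPAC-1 cells. *FCGBP*, an Fc-binding mucus protein, stood at 0.621, 0.427 and 0.490 RPKM in negative and 0.126, 0.140 and 0.361 RPKM in positive samples, a log2 fold change of -1.05 (SE 0.37) that missed the threshold (adjusted p = 0.061). The galectin-binding glycoprotein *LGALS3BP* was abundant in both, at 519 ± 11.2 RPKM (SD, n = 3) and 495 ± 77.9 RPKM, with a log2 fold change of -0.08 (SE 0.13). Complement *C3* fell by 0.91, from 27.3, 20 and 24.2 RPKM to 8.51, 13.6 and 17.2 RPKM. *HPX*, the haem carrier hemopexin, was below the filter, with 3 reads over the negative and 1 over the positive libraries.

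Epithelial markers were abundant in both fractions. *EPCAM*, a surface protein of epithelia, stood at 223, 238 and 250 RPKM in negative and 187, 235 and 258 RPKM in positive samples, groups that overlap, and the log2 fold changes of *EPCAM*, *KRT19* and the ductal factor *SOX9* were -0.08, -0.14 and -0.11 with SEs of 0.13, 0.14 and 0.09. E-cadherin (*CDH1*) rose slightly, from 80.8, 75.3 and 81.0 RPKM to 100, 96.3 and 98.4 RPKM (0.31, SE 0.08). Of 34 junction and surface genes 8 rose (23.5%, beside 19.7% of all genes) and 6 fell (17.6%, beside 12.7%). The ranges were 4 to 10 and 1 to 11, and the median of 0.07 became -0.03 when samples were centred on their medians. The ones that rose over 2-fold included the desmosomal *PKP2* (1.43) and *DSG3* (1.45) and the connexin *GJB2* (2.58), which went from 0.793, 0.902 and 0.301 RPKM to 3.31, 4.11 and 5.29 RPKM. The hemidesmosomal integrin *ITGB4* fell by 0.88. Tight junction claudins went opposite ways: *CLDN1* rose from 4.03, 1.58 and 1.70 RPKM to 11.4, 7.90 and 14.9 RPKM, while *CLDN4*, far more abundant, fell from 1322, 1529 and 1357 RPKM to 685, 936 and 909 RPKM. Of 13 epithelial transcription factors 4 rose and 4 fell, with ranges of 3 to 5 and 1 to 5. The grainyhead factors *GRHL2* and *GRHL1* rose by 1.04 and 1.18 and the splicing regulator *ESRP2* by 0.77, while the ETS factor *EHF* fell by 0.71.

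Keratins and cornified envelope genes, many of which belong to stratified epithelia, rose more often than they fell. Of 14 keratins 7 rose and 2 fell (median 0.59), with ranges of 3 to 7 and 1 to 3, the lowest number that rose being without negative replicate 3. *KRT6A*, a keratin of activated squamous cells, went from 0.0839, 0.168 and 0.143 RPKM to 6.29, 4.35 and 5.98 RPKM, a log2 fold change of 4.60 (SE 0.25). Its reads could be shared with near-identical keratins, and so could those of *KRT81*, which rose by 2.43. The simple keratin *KRT18* rose from 711, 809 and 762 RPKM to 1234, 1194 and 1271 RPKM, and *KRT15* fell by 0.88. Of 18 cornified envelope genes fitted, out of 30 listed, 7 rose, 6 over 2-fold, and 2 fell, with ranges of 6 to 7 and 0 to 2. Involucrin (*IVL*) rose by 3.12, the small proline-rich *SPRR3* by 3.05 and the surface protein *LY6D* by 1.5. The membrane protease *TMPRSS11E* rose from 0.144, 0.128 and 0.0939 RPKM to 6.19, 3.57 and 1.64 RPKM, with positive replicate 3 lowest of its fraction.

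Mesenchymal genes showed no common direction. Of 11 EMT transcription factors 1 rose (9.09%, beside 19.7% of all genes) and 3 fell (27.3%, beside 12.7%), all 3 over 2-fold. *ZEB1*, a repressor of epithelial genes, went from 7.65, 6.78 and 5.94 RPKM to 2.56, 2.49 and 2.48 RPKM (log2 fold change -1.39, SE 0.14), *RUNX3* and *RUNX2* fell by 1.20 and 1.12, and *SNAI1*, also a repressor of E-cadherin, rose by 0.82 (adjusted p = 0.049) although its samples overlapped. Of 17 mesenchymal and contractile genes 2 rose and 4 fell. *CALD1*, an actin-binding protein, rose from 1.10, 0.781 and 0.556 RPKM to 6.87, 6.11 and 3.93 RPKM, while *MYL9* and *TAGLN* of the contractile apparatus and N-cadherin (*CDH2*) fell by 1.11, 1.40 and 0.73. Of 24 stromal matrix genes 5 rose and 5 fell, with ranges of 2 to 5 and 2 to 7. These are 20.8% each, beside 19.7% and 12.7% of all genes. *THBS1* rose by 2.01, from 30.9, 19.6 and 22.5 RPKM to 136, 95.5 and 69.3 RPKM, the proteoglycan *SPOCK1* rose by 1.23, and osteopontin (*SPP1*) and *GPC6* fell by 1.35 and 1.05.

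Matrix proteases were lower more often. Of 17 proteases and inhibitors 7 fell, 5 over 2-fold, and 2 rose (median -0.83), with ranges of 4 to 9 and 1 to 3. *PLAT*, tissue plasminogen activator, fell from 521, 575 and 608 RPKM to 77.3, 136 and 259 RPKM. The antiprotease *SERPINA1* fell from 213, 241 and 233 RPKM to 47.0, 64.5 and 78.7 RPKM, a log2 fold change of -1.88 (SE 0.18), and *MMP11* fell by 1.52. *MMP24*, a membrane-bound metalloprotease, rose by 1.11. The summed level of the list was 3654 to 3897 RPKM in negative and 1668 to 2610 RPKM in positive samples.

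Factors of the foregut lineage were divided. Of 22 ductal and foregut transcription factors 4 rose (18.2%, beside 19.7% of all genes) and 5 fell (22.7%, beside 12.7%). The ranges were 2 to 6 and 3 to 5. The hepatic nuclear factors went opposite ways: *HNF4A* rose by 1.03, from 1.82, 1.94 and 2.08 RPKM to 4.66, 3.71 and 3.88 RPKM, and *HNF4G* fell by 1.5, from 13.4, 15.4 and 16.2 RPKM to 4.84, 5.54 and 5.32 RPKM. Among the pioneer factors *FOXA1* rose by 0.65 and *FOXA3* fell by 1.56. Of 16 classical subtype genes of pancreatic carcinoma 2 rose and 2 fell (0 to 3 fell with 1 sample left out). These are 12.5% each, beside 19.7% and 12.7% of all genes. Those that rose were *ANXA10* (1.04) and *TFF1* (1.01). Those that fell were *KRT20* (-1.93) and *CDH17*, which had 44 reads over the negative and 3 over the positive libraries. Of 23 basal-like subtype genes 11 rose and 4 fell (median 0.60, ranges 7 to 10 and 3 to 5), with the cysteine protease inhibitor *CST6* up by 2.57 and the serpin *SERPINB4* down from 9.77, 8.65 and 9.69 RPKM to 0.445, 1.58 and 1.28 RPKM. The reads of *SERPINB4* may be shared with its neighbour and paralog. Of 14 progenitor and tumour-initiating markers 3 rose and 4 fell (2 to 5 fell with 1 sample left out). These are 21.4% and 28.6%, beside 19.7% and 12.7% of all genes. The drug pump *ABCG2* rose by 2.23 at about 1 RPKM and *ALDH1A1* by 1.15. The related dehydrogenase *ALDH1A3*, the more abundant of the pair, fell by 1.20, from 931, 977 and 996 RPKM to 321, 464 and 501 RPKM, and the growth factor receptor *MET* fell by 0.57.

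Several secreted signals to neutrophils were higher in positive CFPAC-1 cells. Of 34 chemokine and inflammatory genes 16 rose, 12 over 2-fold, and 4 fell (median 0.52), with ranges of 9 to 13 and 0 to 6. These are 47.1% and 11.8%, beside 19.7% and 12.7% of all genes. The summed level of the list did not rise, at 1990 to 2205 RPKM in negative and 1776 to 2052 RPKM in positive samples. *IL8*, a neutrophil chemokine, went from 19.8, 25.9 and 17.8 RPKM to 94.7, 69.9 and 67.8 RPKM, *CXCL1* from 11.4, 9.15 and 9.05 RPKM to 77.4, 51.9 and 35.8 RPKM and *CXCL5* from 53.5, 28.0 and 28.2 RPKM to 286, 240 and 165 RPKM. Their log2 fold changes were 1.87, 2.41 and 2.69. *CCL28*, a mucosal chemokine that draws plasma cells, rose from 2.33, 1.06 and 1.60 RPKM to 23.3, 16.9 and 20.4 RPKM (log2 fold change 3.58, SE 0.26).

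Complement and coagulation genes fell more often than they rose, 17 of 30, 12 over 2-fold, with 2 rising (median -0.76), and 9 to 18 fell with 1 sample left out. *F2R*, the thrombin receptor, fell from 333, 448 and 446 RPKM to 106, 109 and 114 RPKM (-1.89, SE 0.13). *CD55*, which shields cells from complement, fell from 136, 146 and 143 RPKM to 13.2, 35.7 and 28.0 RPKM, and *PROS1*, protein S, and *C1R*, a protease of the first component, fell by 1.41 and 1.62. *F3*, tissue factor, rose instead, from 162, 129 and 128 RPKM to 624, 465 and 336 RPKM, with positive replicate 3 closest to the negative samples.

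**Figure D4:**
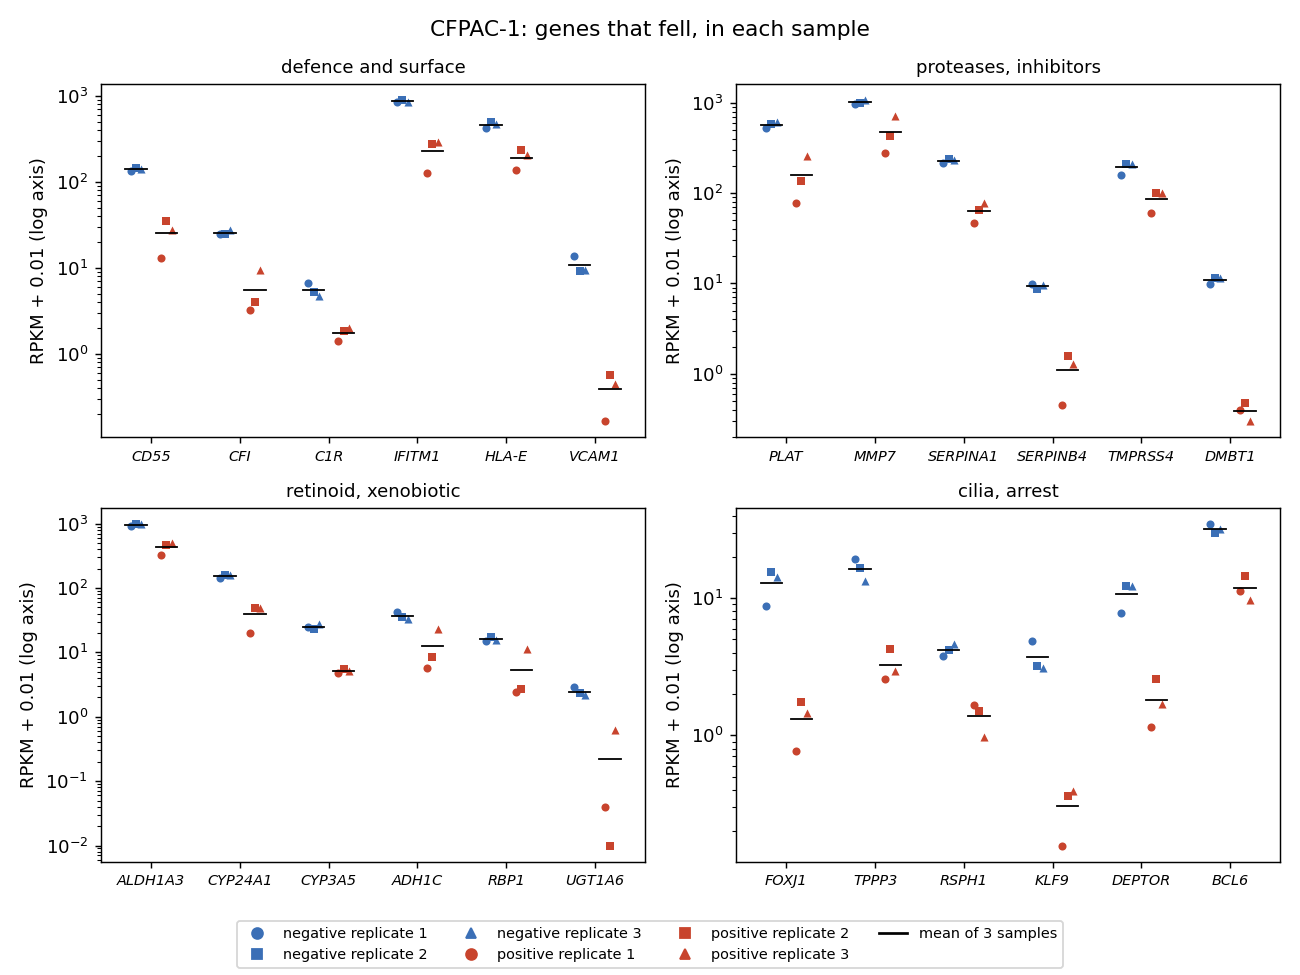
RPKM + 0.01 on a log axis, in each CFPAC-1 sample, of genes that fell, in 4 panels of 6 genes, with a bar at the mean of 3 samples. Negative points lie above positive ones in each gene, and within the positive fraction replicate 1 is lowest for *CD55*, at 13.2 RPKM against 35.7 and 28.0 RPKM.

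Counts of interferon and antigen presentation genes moved with single samples. Of 45 interferon-stimulated genes 8 fell and 4 rose with all samples (median -0.22), and without positive replicate 3 the numbers were 24 and 3, whereas 3 fell without negative replicate 2 or 3 and 5 without positive replicate 1. The membrane proteins *IFITM1*, *IFITM2* and *IFITM3*, which block virus entry, fell, with log2 fold changes of -2.0, -1.16 and -1.06, and *IFITM1* went from 845, 908 and 854 RPKM to 128, 274 and 292 RPKM. The RNA sensor *DDX58* rose by 0.64. Of 18 MHC class I presentation genes 3 fell and 3 rose, 16.7% each beside 12.7% and 19.7% of all genes. Without positive replicate 3 the numbers were 8 and 3, whereas 1 fell without negative replicate 2 or 3. *HLA-E* fell by 1.31, from 429, 494 and 472 RPKM to 137, 233 and 204 RPKM, and *TAPBP* by 0.55, while *CALR* and *TAP2* rose by 0.64 and 0.59. The part of the depth of positive replicate 3 in these counts was not tested. Summed levels were lower in positive samples, without overlap. They were 4445 to 4705 RPKM in negative and 2158 to 3823 RPKM in positive samples for the interferon list. For the MHC class I list they were 5676 to 6495 RPKM in negative and 3358 to 5086 RPKM in positive samples.

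Of 28 genes for metabolism of drugs and retinoids 13 fell, 9 over 2-fold, 3 rose and 12 did not pass the test (median -0.33), and 5 to 14 fell with 1 sample left out. *CYP3A5*, a drug-oxidising cytochrome, went from 24.5, 22.8 and 28.0 RPKM to 4.76, 5.45 and 5.08 RPKM, a log2 fold change of -2.28 (SE 0.12), and *CYP24A1*, which inactivates vitamin D, from 143, 159 and 159 RPKM to 19.9, 48.9 and 48.6 RPKM. The retinal reductase *DHRS3* fell by 1.00. Among the 12 genes with the most negative change in the line 7 were *UGT1A* members, glucuronosyltransferases that share most exons and so may be 1 signal. *UGT1A10* stood at 4.05, 2.95 and 3.03 RPKM in negative and 0.0641, 0 and 1.01 RPKM in positive samples, positive replicate 3 being the highest of its fraction. Of 24 genes of duct ion and fluid transport 6 fell (25%, beside 12.7% of all genes) and 3 rose (12.5%, beside 19.7%). Without positive replicate 3 the numbers were 9 and 4, whereas 2 fell without negative replicate 2. The sodium channel subunit *SCNN1A* fell from 139, 141 and 137 RPKM to 49.6, 69.7 and 55.6 RPKM, carbonic anhydrase *CA12* fell by 1.20, and the water channel *AQP3* rose by 1.45.

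Of 26 motile cilia genes fitted 11 fell, 10 over 2-fold, 1 rose and 14 did not pass the test (median -0.73), and 7 to 11 fell with 1 sample left out. *FOXJ1*, the master regulator of motile cilia, went from 8.76, 15.6 and 14.3 RPKM to 0.753, 1.74 and 1.44 RPKM, a log2 fold change of -3.23 (SE 0.32). *TPPP3*, a tubulin-binding protein, fell by 2.32, *RSPH1*, a radial spoke part, by 1.58 and *ARMC3* by 1.93. Of 26 membrane serine proteases, kallikreins and their inhibitors 10 fell, with a range of 3 to 11, and 3 rose, and the secreted *WFDC2* and *TMPRSS4* were down by 0.96 and 1.17, while *TMPRSS13* rose by 1.67.

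Ligands and modulators of growth factor pathways changed in both directions. Of 30 TGF-beta and BMP genes 6 rose, 5 over 2-fold, and 11 fell, with ranges of 5 to 8 and 5 to 14. *TGFB2* fell by 1.12 and the target *ID2* fell by 1.06, while the activin subunits *INHBA* and *INHBB* rose by 2.60 and 1.97 (*INHBB* 6.80, 6.88 and 6.14 RPKM against 32.0, 30.2 and 18.5 RPKM), as did *FST*, which binds activin, by 3.10. Of 39 Wnt and Notch genes 7 rose and 9 fell, with ranges of 5 to 9 and 4 to 8. These are 17.9% and 23.1%, beside 19.7% and 12.7% of all genes. The Notch ligand *JAG1* went from 24, 23.0 and 23.4 RPKM to 69.5, 58.3 and 66.7 RPKM (1.46, SE 0.10), the Notch feedback gene *NRARP* rose by 1.28 and the Wnt antagonist *DKK1* by 1.19. Of 29 EGFR family and FGF genes 9 rose and 9 fell, with ranges of 6 to 9 and 5 to 11. The EGFR ligands *BTC* and *EREG* rose by 1.73 and 1.21, the receptor *ERBB3* fell by 1.07 and *FGF19*, an endocrine FGF, fell from 23.6, 27.1 and 26.7 RPKM to 0.787, 5.98 and 4.79 RPKM. Of 16 IGF axis genes 5 fell and 1 rose (ranges 3 to 6 and 0 to 3), with *IGF2* (-1.64), *IGFBP7* (-1.93) and *IGF1R* (-0.78) among those that fell. Of 25 YAP and TEAD targets 3 rose and 4 fell with all samples, 12% and 16% beside 19.7% and 12.7% of all genes. Without positive replicate 3, 10 rose and 6 fell, and 2 fell without negative replicate 3. *CYR61*, a classic target, rose by 1.07. Of 32 immediate early and dissociation genes, which cell handling can induce, 4 rose and 7 fell (ranges 2 to 5 and 2 to 12). These are 12.5% and 21.9%, beside 19.7% and 12.7% of all genes. *FOSL1* was at 0.87 and *DUSP5* at -0.93.

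Some of the largest single changes fell outside these groups. Cancer-testis antigens of the MAGE-A family are silent in most adult tissue, and only 3 of 13 family members passed the filter, *MAGEA3* only through the positive samples. *MAGEA3* had 5 reads over the negative and 959 over the positive libraries, a ratio per library total of 214 (95% counting interval 91.4 to 661), and stood at 25.6, 22.3 and 2.33 RPKM in the positive samples, with positive replicate 3 far below the others. Its reads may be shared with near-identical family members. *GPR141*, an orphan receptor, had 1 read and 191 reads, a ratio of 213 (37.8 to 8463), and also passed the filter only through the positive samples. *SPTSSB*, a subunit of the enzyme that starts sphingolipid synthesis, had 8 and 268 reads, a ratio of 37.4 (18.7 to 87.5). The heparan sulphate proteoglycan *SDC2* went from 0.206, 0.262 and 0.173 RPKM to 11.4, 10.6 and 3.08 RPKM. *FAM133A* (4.20), the phosphatase *PTPRR* (3.49) and the zinc finger gene *ZNF114* (3.45) rose too, each lowest in positive replicate 3.

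Among those that fell, *VCAM1*, an adhesion molecule for leukocytes, went from 13.8, 9.14 and 9.38 RPKM to 0.155, 0.565 and 0.438 RPKM, a log2 fold change of -4.57 (SE 0.36). *DMBT1*, a mucosal scavenger protein encoded at chr10:124320181-124403252 on the plus strand of GRCh37, had the smallest p of all genes and went from 9.75, 11.5 and 11.4 RPKM to 0.383, 0.464 and 0.287 RPKM (-4.53, SE 0.19, limma adjusted p = 0.00022). The urea transporter *SLC14A1* fell from 116, 158 and 163 RPKM to 7.13, 11.3 and 14.6 RPKM. The cannabinoid receptor *CNR1* (-3.98) and the neural adhesion protein *LSAMP* (-3.72) stood above 6 RPKM in each negative and under 1 RPKM in each positive sample. *CST1*, a salivary cystatin, fell from 34.1, 38.4 and 36.6 RPKM to 1.81, 4.49 and 7.92 RPKM, and *IQGAP2*, a scaffold protein, fell by 3.20. *MARC1*, a mitochondrial reductase, rose by 2.02 with little spread, from 2.15, 2.34 and 2.17 RPKM to 9.56, 9.5 and 8.94 RPKM.

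The change from negative to positive cells was set against that in SW1990 with limma on all 12 samples. It differed between lines over 2-fold for 2139 genes (13.6%), being higher in CFPAC-1 for 1270 (8.07%) and lower for 869 (5.52%). That split depended on scaling. It was 1001 higher and 1059 lower with each sample centred on its median, and 1035 and 1063 under quantile normalization. Of the genes over 2-fold up in CFPAC-1, 508 differed (3.23% of genes fitted), as did 264 of those over 2-fold down (1.68%). The S phase genes stood out in number: 34 of 40 differed, all with the higher change in CFPAC-1, and the median in SW1990 was 0.35. For *PCNA* the difference was 1.51 on the log2 scale (SE 0.18) and for *CLSPN* 2.60, whereas 3 of 44 G2/M genes differed. Of the 14 NRF2 genes that differed all were higher in CFPAC-1. Epithelial genes differed the other way, 22 of 34 junction and surface genes and 10 of 13 epithelial factors being lower, and *EPCAM* and *CDH1* were at 3.04 each in SW1990. Likewise 18 of 26 membrane serine proteases and 9 of 26 cilia genes differed, each lower in CFPAC-1.

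**Figure D5:**
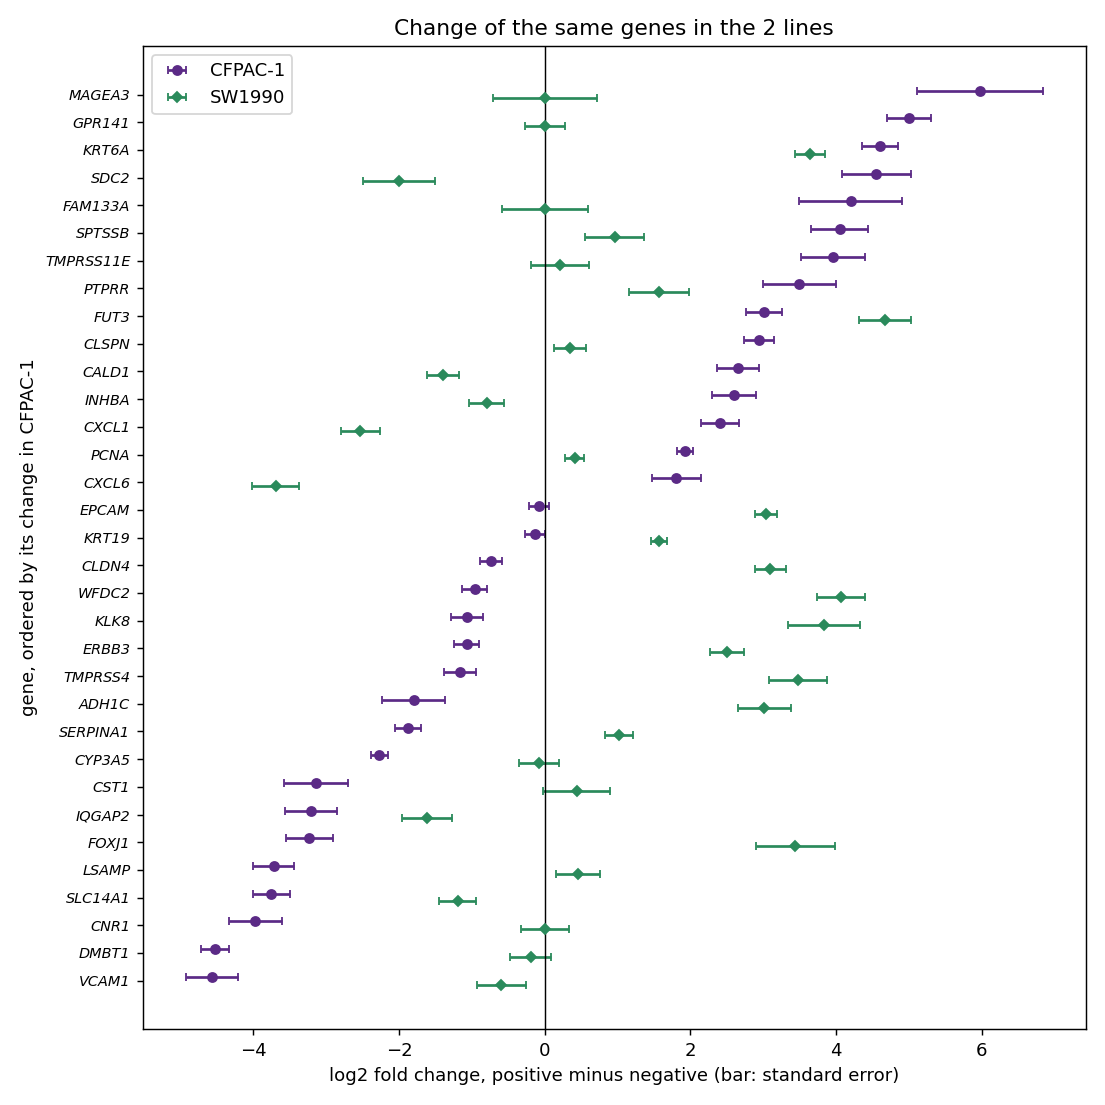
Log2 fold change, positive over negative, of named genes in CFPAC-1 (circles) and SW1990 (diamonds), with bars of 1 SE and genes ordered by the CFPAC-1 value. *MAGEA3*, *GPR141*, *FAM133A* and *CNR1* were listed at 0 in SW1990, where their value of 0 is no measurement of a change, and *FOXJ1* and *CXCL6* lie on opposite sides of 0 in the 2 lines.

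Opposite changes over 2-fold, with the difference past the test, were found for 67 genes that rose in CFPAC-1 (0.426%) and 42 that fell (0.267%). Secreted and surface genes were among them. *FOXJ1* fell by 3.23 in CFPAC-1 and was higher by 3.44 in SW1990 (0.958, 0.537 and 1.5 RPKM in negative and 4.06, 19.3 and 17 RPKM in positive samples). *IL8*, *CXCL1* and *CXCL6*, a chemokine of the same group, rose by 1.87, 2.41 and 1.81 in CFPAC-1 and were at -2.43, -2.53 and -3.70 in SW1990. *SDC2* rose by 4.55 in CFPAC-1 and was at -2.0 in SW1990. The mucins *MUC2*, *MUC5B* and *MUC4* fell in CFPAC-1, with values of -2.09, -1.96 and -1.23, and were at 2.11, 1.26 and 3.46 in SW1990, and these 3 genes and *CXCL6* were chosen after their values were seen. *SERPINA1*, *SCNN1A* and *ERBB3* fell in CFPAC-1 and were at 1.02, 1.09 and 2.5 in SW1990, while *DKK1* rose and was at -1.35. *FUT3*, by contrast, was higher in positive cells of both lines, 3.01 in CFPAC-1 and 4.67 in SW1990, a difference of -1.66 (adjusted p = 0.032).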

How the data were processed

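RNA-seq reads were aligned to hg19 (GRCh37) and quantified with QuasR by the authors, who deposited a table of RPKM per gene. The labels name a strand-specific library kit and the methods of the study another kit. Whether counting used strand, the annotation and the handling of multimapping reads are not given in the sources used here, so genes that share sequence may share reads. Groups came from the labels. RPKM is normalised to library totals and is not a count, so the test was limma (3.58.1, R 4.3.3, with an intensity trend) on log2(RPKM + 0.1), over the 6 CFPAC-1 samples, for genes whose mean reached 0.1 RPKM, with Benjamini-Hochberg adjustment over all genes fitted. The difference between lines was an interaction term over 12 samples. An exact permutation test of 3 against 3 samples cannot go below p = 0.1 and was not used.

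Whole reads were recovered from the deposited RPKM steps: all 14329 genes above 0 in all 12 samples gave whole reads (tolerance 0.01). Recovered reads served as an alternative test, through voom, and for ratios of low genes, whose 95% intervals cover counting error only. The study's methods used another test, TCC. Scripts were tested on simulated data.

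Named genes were the 12 largest and 12 smallest changes over 2-fold among genes averaging 1 RPKM or more with separated groups, 8 at each end that differed between lines, the 10 smallest p, the 4 smallest p of each gene list, and the Lewis, antigen and epithelial genes. Members and lists were chosen with earlier results of these data known. Outside the rule, chosen after their values were seen, were *CDK1*, *CLDN1*, *CLSPN*, *CXCL6*, *E2F1*, *E2F2*, *ERBB3*, *FGF19*, *FST*, *GINS2*, *INHBA*, *MIR3648*, *MUC2*, *MUC4*, *MUC5B*, *SLC7A11*, *TMPRSS4*, *UHRF1* and the genes of lists added later. RefSeq promoter sequences were of GRCh38.p14 and are not on the build of the files. Gene coordinates are of GRCh37. A gene that the rule names is not reported here.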

Additional observations from a re-analysis of the deposited data

Results flagged for a closer look

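Each gene named in the report whose change from negative to positive cells differed between CFPAC-1 and SW1990, by limma's interaction term with an adjusted p under 0.05 over all genes and a difference over 2-fold, is given here by that difference (CFPAC-1 minus SW1990, log2 scale). A positive value means a higher change in CFPAC-1, which can be a smaller fall there than in SW1990. For example, *ZEB1*, *RUNX2*, *CDH2*, *GPC6*, *SPP1*, *IGF2*, *C1R* and *CA12* have positive values but fell in CFPAC-1. A negative value can likewise be a smaller rise, as for *FUT3*. These differences were not weighed against any explanation.

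Replication and precursor genes were higher in CFPAC-1, namely *CDC6* (1.47), *CLSPN* (2.60), *E2F1* (1.66), *E2F2* (2.89), *FAM111B* (1.51), *GINS2* (1.79), *MCM2* (1.45), *MCM4* (1.71), *PCNA* (1.51) and *UHRF1* (1.53), and so were *CTPS* (1.98), *NME1* (1.34), *RRM2* (1.94), *TK1* (1.58), *TYMS* (1.55), *MYBL2* (2.26) and *RBL1* (1.43). Genes of growth and stress machinery with a higher change were *NOP56* (1.08), *SNORD17* (2.94), *SNORD48* (3.68), *PSMB6* (1.11), *PSMC3* (1.61), *RPL6* (1.03), *PSAT1* (2.08), *SDF2L1* (1.05), *GCLM* (1.81), *ME1* (2.44) and *DGAT2* (2.63). Secreted signals and their modulators with a higher change were *CXCL1* (4.94), *CXCL5* (2.02), *CXCL6* (5.50), *IL8* (4.30), *BTC* (1.38), *INHBA* (3.40), *DKK1* (2.54), *JAG1* (1.63), *NRARP* (1.61), *IGF2* (2.14) and *CYR61* (1.54).

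Mesenchymal and matrix genes with a higher change were *CALD1* (4.06), *CDH2* (1.44), *SNAI1* (2.62), *ZEB1* (2.17), *RUNX2* (1.29), *GPC6* (1.41), *SPOCK1* (2.85), *SPP1* (2.53), *THBS1* (2.16), *MMP24* (1.22) and *SDC2* (6.55). Other genes of this direction were *MAGEA3* (5.98), *GPR141* (5.00), *FAM133A* (4.20), *SPTSSB* (3.09), *TMPRSS11E* (3.75), *PTPRR* (1.92) and *ZNF114* (3.42), of which *MAGEA3*, *GPR141* and *FAM133A* were listed at 0 in SW1990, and *ABCG2* (2.94), *ALDH1A1* (1.62), *ANXA10* (1.81), *C1R* (2.51), *CA12* (2.23), *CD68* (1.21), *CLDN1* (2.65), *DDX58* (1.08) and *FOXA1* (1.05).

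Epithelial genes had a lower change in CFPAC-1, namely *CDH1* (-2.73), *CLDN4* (-3.84), *EPCAM* (-3.12), *EHF* (-1.63), *ESRP2* (-1.13), *GRHL2* (-1.77), *KRT15* (-3.03), *KRT19* (-1.71), *KRT20* (-1.93), *LY6D* (-2.20) and *SPRR3* (-1.80). Mucins, proteases and secreted proteins of this direction were *MUC2* (-4.21), *MUC4* (-4.69), *MUC5B* (-3.22), *TMPRSS4* (-4.65), *WFDC2* (-5.03), *SERPINA1* (-2.90), *SERPINB4* (-2.72), *PLAT* (-2.27), *CST1* (-3.58), *DMBT1* (-4.34) and *TFF1* (-3.04). Glycosyltransferases were *FUT3* (-1.66), *FUT6* (-1.77) and *B3GALT5* (-2.07), and cilia genes were *FOXJ1* (-6.67), *TPPP3* (-1.77), *RSPH1* (-2.79) and *ARMC3* (-2.71).

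Lineage, metabolic and transport genes with a lower change were *FOXA3* (-2.35), *HNF4G* (-1.84), *ALDH1A3* (-1.65), *CYP24A1* (-2.42), *CYP3A5* (-2.20), *SCD* (-1.22), *SCNN1A* (-2.36) and *SLC14A1* (-2.56). Receptors, signals and surface proteins were *ERBB3* (-3.58), *FGF19* (-3.38), *IGFBP7* (-1.68), *IFITM1* (-1.37), *VCAM1* (-3.97), *CNR1* (-3.98), *LSAMP* (-4.17) and *IQGAP2* (-1.58), and the growth control genes were *DEPTOR* (-1.48), *DUSP5* (-2.12) and *YPEL3* (-1.24). *CNR1* and *KRT20* were listed at 0 in SW1990.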

How the results depend on the processing

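Of the 185 named genes that passed the test, none reversed under any alternative, and 3082 of 3138 values kept direction and call. The 56 lost calls were mostly in fits leaving out 1 negative sample and touched *CDH1*, *C3*, *SNAI1*, *CDH17* and *ST3GAL3* most. Log2 fold changes near 0 changed sign for *EPCAM* (-0.1778 to 0.0542) and *LGALS3BP* (-0.2044 to 0.0043) when 1 sample was left out, both without positive replicate 1, and for *LGALS3BP* under quantile normalization (0.0258). Neither passed the test in any of these.

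Leaving out 1 sample gave 1650 to 3768 genes higher and 881 to 2606 lower, 683 to 1002 and 443 to 813 over 2-fold, and 1115 to 1380 and 746 to 975 differing between lines. Lower genes numbered 1095, 965 and 881 without negative replicates 1, 2 and 3, and higher genes 1778 and 1650 without negative replicates 2 and 3. Genes lower over 2-fold fell in number to 443 without negative replicate 3. Thresholds moved the counts by construction: an adjusted p under 0.01 called 1545 higher and 831 lower (411 lower over 2-fold), and over 2-fold with an unadjusted p under 0.01 called 854 and 623. A pseudocount of 1 called 474 higher and 285 lower over 2-fold, with 815 differing and higher in CFPAC-1. Genes differing between lines were 1001 higher and 1059 lower in CFPAC-1 under median centring, and 1035 and 1063 under quantile normalization. A mean RPKM of at least 1, which tests fewer genes, called 430 lower over 2-fold. The share of calls that were higher, 60.7%, was 48.0% under median centring (2411 higher, 2616 lower), 50.03% under quantile normalization (2542, 2539) and 49.8% with recovered reads and median-of-ratios size factors (2890, 2916), and the cause was not tested. Under median centring the medians of 6 lists, all 0.10 or less, fell to between -0.03 and 0.00.

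Deviations of same-numbered samples from their fraction means correlated at -0.06 to 0.00, and those of other pairs at -0.03 to 0.04. Each mean rests on 3 samples, so these correlations cannot settle whether samples of equal number share a sort. With the replicate block, 2631 genes were higher and 1615 lower, and *CDH1*, *CDH17* and *ST3GAL3* lost their calls.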
